A study of Mus musculus with 33 samples.

Results

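Ifit1, Ifit2, Ifit3, Isg15, Usp18, Rsad2, Mx1, Mx2, Ifi44 and Cmpk2 are interferon-stimulated genes, that is, genes whose transcription rises when a cell senses interferon. They were taken by symbol from a gene table of 56414 rows, in which each of the 10 genes had exactly 1 row. RNA was sequenced from lymphoid organs of tumor-free C57Bl/6 mice that were left untreated or received nicotinamide (NAM), an amide form of vitamin B3, as a 0.5% solution to drink over 1, 3 or 14 days. The spleen-labelled libraries numbered 5 in each of the 4 groups, and those labelled lymph node numbered 3 untreated, 2 on day 1, 4 on day 3 and 4 on day 14. The untreated libraries carry no label of any other treatment or allele. The study's methods describe female mice several weeks old, and the labels give neither sex nor age. The comparison asks which transcripts, among them those of type I interferon signaling, changed upon NAM intake, and when.

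Type I interferons bind a receptor made of Ifnar1 and Ifnar2 and act through the kinases Jak1 and Tyk2. Activated transcription factors then bind a DNA element that carries GAAA repeats, and Irf7, itself induced, amplifies interferon production. Products of such genes restrict viruses or tune the response, and in lymphoid organs their baseline level is commonly read as a measure of tonic interferon signaling.

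In mm10 the Ifit genes lie on the plus strand of chromosome 19, Ifit2 at chr19:34550694-34576534, Ifit3 at chr19:34583527-34589036 and Ifit1 at chr19:34640879-34650009. Mx1 (chr16:97447035-97462908, minus strand) and Mx2 (chr16:97535304-97560905, plus strand) are neighbors, as are Rsad2 (chr12:26442743-26456452, minus strand) and Cmpk2 (chr12:26469204-26479835, plus strand). Isg15 (chr4:156199424-156200818, minus strand), Usp18 (chr6:121245904-121270917, plus strand) and Ifi44 (chr3:151730916-151749959, minus strand) stand apart. The gene annotation lists Mx2 as a polymorphic pseudogene and the other 9 as protein-coding.

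The values are normalised read counts, which the authors obtained by dividing the reads of each gene by a size factor of the library. Whole reads per library ranged from 18325061 to 54830743 in the spleen-labelled set and from 30424968 to 46733974 in the lymph node-labelled set. Under the spleen label the 3-day libraries were the deepest, at 43632016 reads or more. Per gene and library, the 10 genes had from 21 reads (Rsad2) to 7265 reads (Ifit3), so the counting error was largest for Rsad2. The tissue labels went against their defining markers. Glycam1, a mucin of lymph node venules, measured 108200 to 214200 in spleen-labelled libraries and 1.58 to 12.4 in those labelled lymph node, and Spic, a factor of splenic red pulp macrophages, measured 774 to 1295 and 6117 to 10490. The order was opposite to the label in 33 of 33 libraries, so tissues are named here only as labelled. Where libraries are called spleen or lymph node without that word, the label is meant. Among the lymph node-labelled libraries, replicate 1 on day 1 stood apart, with a sum over 7 exocrine pancreas genes of 111100 against 628 to 1270 in the other 12. Among those labelled spleen, replicate 1 on day 3 lay with all 5 untreated and all 5 14-day libraries on the second principal component, on the side opposite to the other 4 libraries on day 3 and all 5 on day 1.

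Within 1 day of NAM, 9 of the 10 genes rose in the spleen-labelled libraries, by 0.62 to 1.45 on the log2 scale. The median change of the 10 genes was 0.96, beside 0.01 over all 18243 genes tested. limma with Benjamini-Hochberg adjustment over those genes, at a threshold of 0.05, called 8.56% of all genes higher in this comparison. Mx1 was the member that did not pass. The plot of values by library and the heat map show the 5 libraries on day 1 against the other groups.

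**Figure D1:**
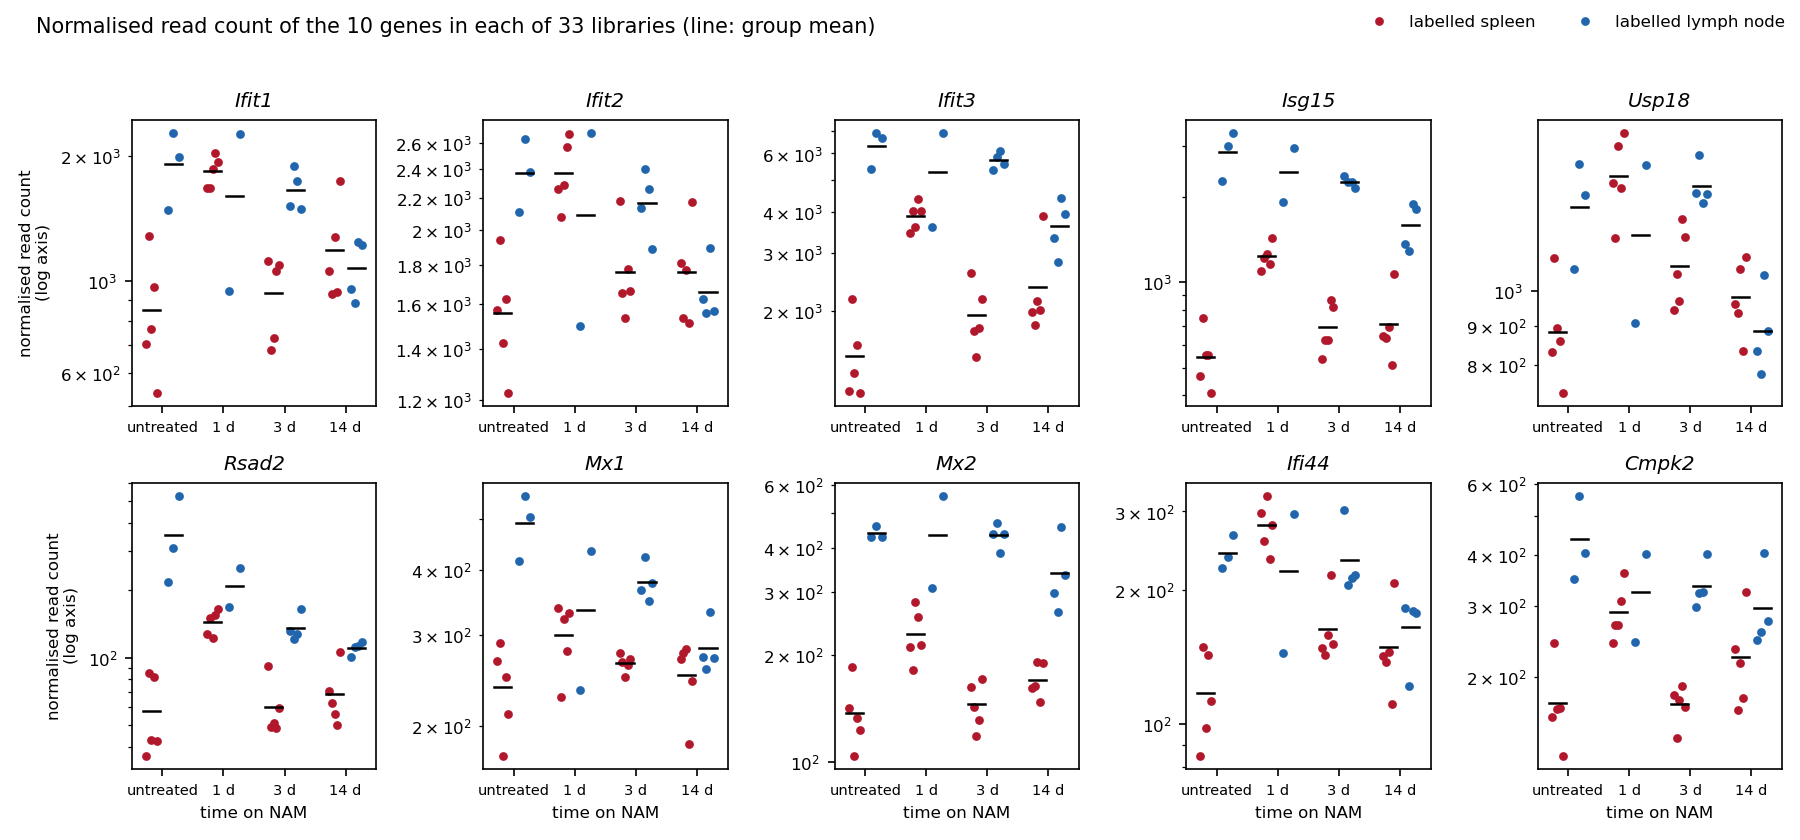
Normalised read count (log axis, a separate range in each panel) of the 10 genes in every library, by time on NAM, with spleen-labelled libraries in red and lymph node in blue. Each point is a library and each black line a group mean. The red points on day 1 lie above all red untreated points for 8 genes, and the blue points on day 14 lie below all blue untreated points for 8 genes.

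The Ifit proteins bind viral RNA that lacks the marks of host RNA and block its translation, and Ifit3 stabilizes the binding by its partners. Ifit3 measured 1146, 2187, 1299, 1578 and 1133 in the untreated spleen-labelled libraries and 3448, 4014, 3587, 4378 and 4024 on day 1. The lowest treated library lay above the highest untreated one. The log2 fold change was 1.45 ± 0.20 (SE, limma adjusted p = 0.000306), that is, 2.72-fold. Ifit1 measured 706, 1283, 765, 969 and 537 untreated and 1675, 1676, 1867, 2035 and 1939 on day 1, again without overlap, and rose by 1.17 ± 0.21 (SE, limma adjusted p = 0.00129). For Ifit2, of the same family, the fold change was smaller. Its untreated libraries ranged from 1225 to 1938 and its libraries on day 1 from 2081 to 2666, and its log2 fold change was 0.62 ± 0.12 (SE, limma adjusted p = 0.00228).

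Isg15 encodes a ubiquitin-like protein that is attached to other proteins, and Usp18 the protease that removes it and that also dampens signaling at the interferon receptor. Isg15 measured 469, 750, 555, 557 and 408 in the untreated spleen-labelled libraries and 1097, 1219, 1253, 1157 and 1434 on day 1. All treated libraries were above all untreated ones, and the log2 fold change was 1.19 ± 0.18 (SE, limma adjusted p = 0.000483). Usp18 measured 831, 1103, 893, 859 and 735 untreated and 1381, 1172, 1543, 1362 and 1608 on day 1. The groups came close, at 1103 and 1172, but did not overlap, and the log2 fold change was 0.68 ± 0.11 (SE, limma adjusted p = 0.000809). Of the 6 genes listed for ISG15 conjugation, only these 2 passed. The activating enzyme Uba7 measured a log2 fold change of 0.25 (limma adjusted p = 0.0784), the ligase Herc6 0.24 and the conjugating enzyme Ube2l6 0.16.

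Rsad2 encodes viperin, which makes a chain-terminating nucleotide, and Cmpk2, its neighbor on chromosome 12, encodes a mitochondrial nucleotide kinase. Rsad2 measured 36.4, 85.6, 43.0, 82.0 and 42.3 in the untreated spleen-labelled libraries and 127, 151, 122, 156 and 164 on day 1. The untreated libraries fell into a lower set of 3 and a higher pair, all below the treated ones. The log2 fold change was 1.38 ± 0.25 (SE, limma adjusted p = 0.00154), or 2.61-fold. Cmpk2 measured 159, 243, 168, 168 and 128 untreated and 244, 268, 270, 308 and 360 on day 1. Untreated replicate 2 and the lowest treated library were nearly equal, and the log2 fold change was 0.76 ± 0.17 (SE, limma adjusted p = 0.0062).

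Ifi44 is an interferon-induced protein whose role is less defined, and Mx1 and Mx2 belong to a family of dynamin-like GTPases that trap viral components, of which C57Bl/6 mice carry defective alleles. Ifi44 measured 84.8, 149, 97.9, 143 and 112 in the untreated spleen-labelled libraries and 297, 258, 326, 235 and 279 on day 1. It had the smallest p among the 10 genes, at rank 22 of 18243, with a log2 fold change of 1.27 ± 0.17 (SE, limma adjusted p = 0.000306). Mx2 measured 142, 184, 104, 133 and 123 untreated and 211, 182, 280, 256 and 214 on day 1, and rose by 0.74 ± 0.15 (SE, limma adjusted p = 0.00303) although replicate 2 on day 1 lay just under untreated replicate 2. Mx1 measured 267, 289, 175, 248 and 211 untreated and 338, 227, 322, 279 and 331 on day 1. Its groups overlapped and its log2 fold change of 0.34 ± 0.14 (SE, limma adjusted p = 0.108) did not pass. Over the 10 genes, 8 had all 5 treated libraries above all 5 untreated ones, as did 6.42% of all genes tested. Without replicate 2 on day 1, all 10 genes passed, and 2519 of all genes were called in either direction, against 3030 with every library. That replicate was the highest on the first principal component (30.1% of the variance), at 74.3, with the other spleen-labelled libraries from -62.5 to 34.7.

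**Figure D2:**
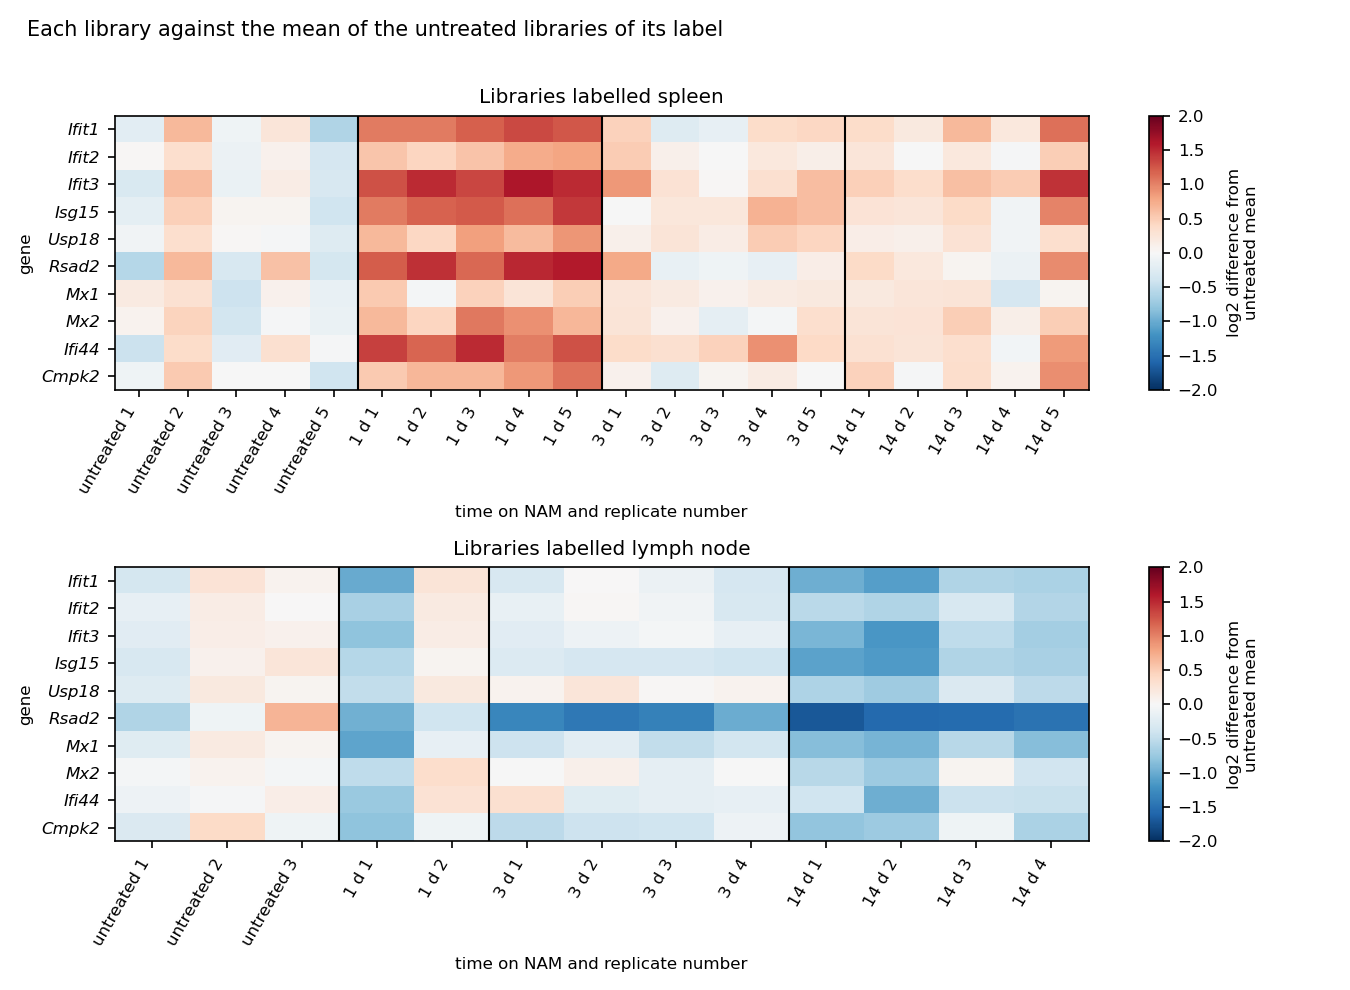
Log2 difference of each library from the mean of the untreated libraries of its label, with the 10 genes as rows and the libraries as columns in groups set apart by black lines (red, higher; blue, lower; the same scale for both labels). The 5 columns on day 1 in the spleen-labelled set are red for nearly every gene, replicate 5 on day 14 is the reddest of its group, and in the lymph node-labelled set replicate 1 on day 1 and the 4 columns on day 14 are mostly blue.

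In bulk RNA, fewer cells of a type and less RNA per cell cannot be told apart. The summed markers of plasmacytoid dendritic cells, major producers of interferon, ranged from 5919 to 9121 in untreated spleen-labelled libraries and from 4814 to 7402 on day 1 (5 of 5 genes measured). Those of monocytes and macrophages ranged from 103400 to 146800 and from 96160 to 137900 (8 of 8 genes). The sums of 8 neutrophil genes were 798 to 1950 and 1214 to 11390, and those of 6 adipocyte genes 25320 to 133200 and 89200 to 379300, with no gene of these 4 lists at 0. All these ranges overlapped between the groups, and their part in the rise of the 10 genes was not tested.

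Other interferon-pathway genes on day 1 in the spleen-labelled set are read against the 8.56% of all genes called higher and 8.05% called lower. Of 29 other type I interferon effectors, 16 were called higher and 0 lower, with a median log2 fold change of 0.40. The 3 with the smallest p were Gm4951 (0.82), Lgals3bp (0.57) and Xaf1 (0.66). Irf7 was called higher, by 0.62 (limma adjusted p = 0.014). Of 7 receptor and kinase genes only Ifngr1, a subunit of the interferon-gamma receptor, was called (0.48). Of 12 rows of nucleic acid sensors and adaptors, 2 of them rows of the DNA sensor Mb21d1, that of the RNA sensor Ifih1 was higher (0.34), and that of the DNA sensor Tlr9 (-0.37) and 1 row of Mb21d1 (-0.52) were lower. The other row of Mb21d1 measured 0.03 (limma adjusted p = 0.932). Of 10 interferon genes only Ifng had enough signal to be tested, with a log2 fold change of 0.57 (limma adjusted p = 0.309), while Ifnb1 reached at most 2 reads in any library, and Ifna1, Ifna2, Ifna4 and Ifna5 had 0 reads in all 33.

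Near-copies of the Ifit genes stand in the same cluster on chromosome 19, and 1 of the 3 measured passed on day 1 in the spleen-labelled set. Ifit3b, which shares 41.1% of the read-length stretches of the Ifit3 transcript, measured 263, 401, 270, 418 and 291 in untreated spleen-labelled libraries and 820, 1046, 858, 1062 and 876 on day 1. It rose by 1.52 ± 0.23 (SE, limma adjusted p = 0.000484), and how the counting divided reads between Ifit3 and Ifit3b is not stated, so both values are uncertain. Ifit1bl1 ranged from 1628 to 2250 untreated and from 1642 to 3014 on day 1, with a log2 fold change of 0.25 ± 0.15 (SE, limma adjusted p = 0.27). Ifit1bl2 ranged from 50.2 to 114 and from 70.2 to 80.8, with -0.07 ± 0.21 (SE, limma adjusted p = 0.849). Ifit1 shares no such stretch with Ifit1bl1 and 5.2% of its stretches with Ifit1bl2. Mx1 shares 1.7% of its stretches with Mx2, and 1 exon of Usp18 overlaps an antisense transcript, Gm44148, by 124 bases.

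**Figure D3:**
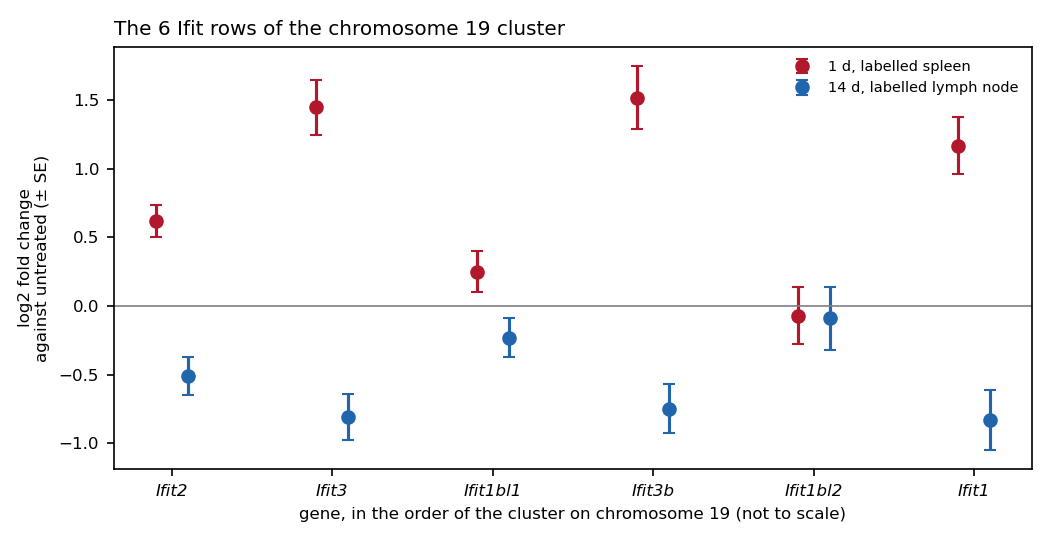
Log2 fold change against untreated (points) ± SE (bars) of the 6 measured Ifit genes of the cluster on chromosome 19, in genomic order, on day 1 in the spleen-labelled set (red) and on day 14 in the lymph node-labelled set (blue). Ifit3, Ifit3b and Ifit1 lie farthest from 0 in both, Ifit2 lies between, and Ifit1bl2 lies near 0.

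The stretches upstream of Ifit1 and Ifit3 are shown because near-copies of both genes carry the same letters, and those of Isg15 and Rsad2 because both genes were called in both sets. The motif searched was GAAA, any 2 bases, then GAAA, on either strand, in RefSeq windows of 250 bases before to 50 after the start site of GRCm38.p6, the assembly also called mm10. It was present in 3.44% of 32851 windows. Of the 7 genes with a window (all but Usp18, Mx1 and Mx2), 4 held it, namely Ifit1, Ifit3, Isg15 and Rsad2. Capitals mark the motif, read 5′ to 3′ on the strand of the gene, where TTTC marks a copy that runs on the other strand, and in Isg15 they cover 3 overlapping copies.
Ifit1, chr19:34640760-34640838, plus strand: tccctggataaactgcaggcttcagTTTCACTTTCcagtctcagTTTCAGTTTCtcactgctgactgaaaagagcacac
Ifit1bl2, chr19:34640760-34640838, minus strand: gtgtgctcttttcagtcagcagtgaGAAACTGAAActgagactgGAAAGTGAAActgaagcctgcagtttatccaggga
Ifit3, chr19:34583348-34583441, plus strand: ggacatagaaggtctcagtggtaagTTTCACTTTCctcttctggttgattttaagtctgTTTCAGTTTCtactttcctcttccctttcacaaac
Isg15, chr4:156200850-156200921, minus strand: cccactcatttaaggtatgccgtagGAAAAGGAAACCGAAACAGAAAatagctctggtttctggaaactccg
Rsad2, chr12:26456538-26456597, minus strand: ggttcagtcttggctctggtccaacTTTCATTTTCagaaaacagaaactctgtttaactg
At 1 of the start sites listed for Ifit1bl2, that gene and Ifit1 start back to back. The same 79 bases, read on opposite strands, then lie upstream of both. They run from 129 to 51 bases before the start of Ifit1 and from 95 to 17 before this start of Ifit1bl2. The other window of Ifit1bl2, chr19:34629762-34630061, held 0 copies of the motif, and which start was in use was not tested. On day 1 in the spleen-labelled set Ifit1 was called higher and Ifit1bl2 was not, and the difference between the 2 genes was not tested. The stretch shown for Ifit3 is identical, over 94 bases, to the one upstream of Ifit3b at chr19:34607744-34607837. The windows of Ifit2, Ifi44 and Cmpk2 held no copy of these letters, and all of these genes rose on day 1. The presence of the letters is a description and says nothing about binding in these organs.

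On day 3 in the spleen-labelled set, 0 of the 10 genes passed against untreated, where limma called 2.82% of all genes higher, and 3 had an unadjusted p under 0.05 (Ifit3, Usp18 and Ifi44), as did 4007 of all 18243 genes. The log2 fold changes ran from 0.01 (Cmpk2) to 0.49 (Ifi44), with a median of 0.18. Ifit3 measured 2608, 1744, 1452, 1783 and 2186 on day 3, and Isg15 535, 626, 628, 868 and 820. Both sets overlapped the untreated values, and 0 of the 10 genes had its groups apart, against 2.46% of all genes that were higher without overlap. edgeR's quasi-likelihood test and DESeq2 on the whole reads also called 0 of the 10 genes, and limma did so without replicate 1 on day 3.

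From day 1 to day 3 in the spleen-labelled set all 10 log2 fold changes were negative, with a median of -0.76, while limma called 0 of the 10 genes lower (smallest adjusted p = 0.13) and 0% of all genes lower. At an unadjusted p under 0.05 there were 9 genes, all but Mx1, and 1273 of all 18243. Rsad2 showed the widest difference, from 122 to 164 on day 1 to 92.0, 49.0, 51.1, 48.4 and 59.7 on day 3, that is, -1.28 ± 0.25 (SE, limma adjusted p = 0.13). The groups did not overlap for 7 of the 10 genes (all but Ifit2, Usp18 and Mx1), beside 0.504% of all genes. When libraries were weighted by their spread, 5 genes were called lower, beside 0.0603% of all genes, and DESeq2 on the whole reads called 7, beside 0.0878%, while edgeR called 0. Without replicate 1 on day 3, whose Rsad2 value was the highest of its group, limma still called 0.

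On day 14 in the spleen-labelled set, 0 of the 10 genes passed against untreated, and limma called 0% of all genes higher. edgeR and DESeq2 on the whole reads also called 0 of the 10. Ifit3 (log2 fold change 0.68), Ifit1 (0.50) and Mx2 (0.33) had an unadjusted p under 0.05, as did 510 of all 18243 genes. Ifit3 measured 1989, 1823, 2153, 2019 and 3873, with replicate 5 within the range of day 1. The same library was the highest of its group for 8 of the 10 genes (not Mx1 and Mx2), at 1748 for Ifit1, 1071 for Isg15, 106 for Rsad2, 207 for Ifi44 and 324 for Cmpk2. No gene had its groups apart, against 0.285% of all genes.

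From day 1 to day 14 in the spleen-labelled set 7 of the 10 genes fell, by 0.44 to 1.09 on the log2 scale, beside 5.41% of all genes called lower by limma. Ifi44 went from 235 to 326 on day 1 to 142, 138, 145, 111 and 207, a change of -0.92 ± 0.17 (SE, limma adjusted p = 0.00347). Isg15 went from 1097 to 1434 to values of 647, 635, 698, 513 and 1071, a change of -0.83 ± 0.18 (SE, limma adjusted p = 0.00682). In both genes replicate 5 on day 14 was the highest of its group, and still below all libraries on day 1. Usp18 (-0.53), Rsad2 (-1.09), Ifit3 (-0.77), Ifit2 (-0.44) and Ifit1 (-0.66) also fell, and Mx1, Mx2 and Cmpk2 did not pass. The call of Ifit1 (limma adjusted p = 0.0426) held in 7 of 11 alternatives and in 1 of the 10 fits that each left out 1 library, and that of Ifit2 in 6 of those 10. Of the 11 marker sums, that of the 5 skeletal muscle genes did not overlap, at 149 to 180.0 on day 1 and 186 to 246 on day 14, and its part was not tested. The groups were apart for Isg15, Usp18, Rsad2 and Ifi44, 4 of 10 genes beside 5.26% of all genes. In order of group mean, Isg15 read 548 untreated, 695 on day 3, 713 on day 14 and 1232 on day 1. Untreated and day 3 did not differ past the threshold, and the values of day 3 (535 to 868) and day 14 (513 to 1071) overlapped. These comparisons share the untreated or the 1-day libraries and are not independent of each other.

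**Figure D4:**
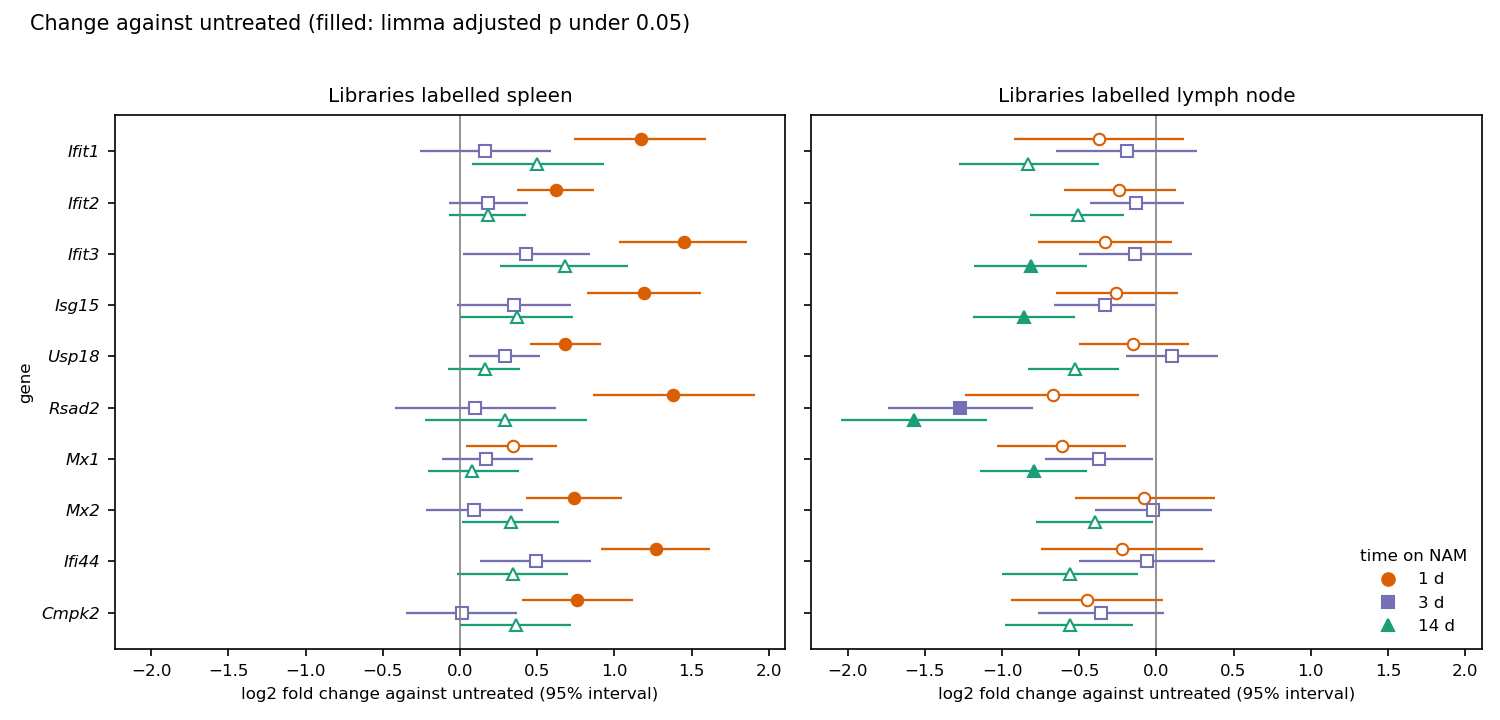
Log2 fold change against untreated (x axis) with its 95% limma interval for the 10 genes on day 1 (circles), day 3 (squares) and day 14 (triangles), for spleen-labelled libraries (left) and lymph node (right). Filled symbols passed an adjusted p of 0.05, namely 9 circles on the left, and 1 square and 4 triangles on the right.

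Untreated means under the lymph node label were 1.46 times (Usp18) to 6.06 times (Rsad2) those in the spleen-labelled set. The untreated libraries of Usp18 overlapped between the labels. As the sets were scaled separately, these ratios are a description and were not tested. Ifit1bl1 (1.17) and Ifit1bl2 (1.04) had ratios near 1.

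On day 14 in the lymph node-labelled set, 4 of the 10 genes fell (Rsad2, Isg15, Ifit3 and Mx1), beside 0.681% of all genes called lower by limma. All 10 log2 fold changes were negative, from -1.57 to -0.40, with a median of -0.68 beside 0 over all 18215 genes tested, and all 10 had an unadjusted p under 0.05, as did 2157 of all genes. edgeR called 4 of the 10 lower, beside 0.78% of all genes, and DESeq2 6, beside 1.6%. Rsad2 measured 216, 309 and 527 untreated and 101, 111, 112 and 117 on day 14. The untreated libraries were widely spread and all above the treated ones, and the log2 fold change was -1.57 ± 0.22 (SE, limma adjusted p = 0.0029). Isg15 measured 2267, 3017 and 3356 untreated and 1357, 1291, 1878 and 1814 on day 14, a change of -0.86 ± 0.15 (SE, limma adjusted p = 0.0138). Ifit3 measured 5390, 6900 and 6671 untreated and 3341, 2816, 4415 and 3941 on day 14, a change of -0.81 ± 0.17 (SE, limma adjusted p = 0.036). Both genes were lower in every treated library than in any untreated one. Mx1 measured 415, 556 and 506 untreated and 272, 257, 332 and 270 on day 14, a change of -0.79 ± 0.17 (SE, limma adjusted p = 0.0319).

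The other 6 genes did not pass on day 14 in the lymph node-labelled set. Ifit1 measured 1487, 2281 and 1990 untreated and 959, 885, 1245 and 1220 on day 14, with a log2 fold change of -0.83 ± 0.22 (SE, limma adjusted p = 0.0907). Usp18 measured -0.53 (limma adjusted p = 0.091), Ifit2 -0.51, Ifi44 and Cmpk2 -0.56 each and Mx2 -0.40. In all, 8 of the 10 genes (not Mx2 and Cmpk2) had every treated library below every untreated one, against 6.02% of all genes tested. Rsad2 passed in all 7 fits that each left out 1 library, and the number of genes called was 1 without untreated replicate 2 or 3 and 2 without 14-day replicate 1, 2 or 4. Over all genes the calls in either direction, 144 with every library, numbered 31 without untreated replicate 2, 85 without untreated replicate 3 and 100 to 159 without those 14-day replicates.

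Beside this fall, the summed markers of erythroid cells (6 of 6 genes measured, none at 0) went from 19400 to 31100 in untreated libraries to 9005 to 13550 on day 14, without overlap. The summed spleen markers (5 of 5 genes, Spic among them, none at 0) went from 49520 to 58360 to 27150 to 44570, also without overlap. The sums for plasmacytoid dendritic cells, 5132 to 5855 and 5061 to 6534, and for monocytes and macrophages, 173600 to 179600 and 179100 to 247800, overlapped, as did those of 8 neutrophil genes at 13280 to 24350 and 11110 to 19820. The low sums of 7 pancreas genes, 1196 to 1270 and 628 to 987, and of 5 skeletal muscle genes, 246 to 265 and 171 to 242, did not overlap, and in both groups Cela2a, Pnlip, Ctrb1 and Myh4 of these lists were at 0. Their part in the fall of the 10 genes, and in the differences between the labels on day 14, was not tested.

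Of the other interferon-pathway genes, every one that was called on day 14 in the lymph node-labelled set was lower, beside 0.681% of all genes called lower and 20 genes called higher. Of 29 other type I interferon effectors, 2 were called lower, Oas2 by -0.80 (limma adjusted p = 0.0114) and Rtp4 by -0.49 (limma adjusted p = 0.0489), with a median of -0.27. Irf7 was called lower (-0.62). Of the 12 rows of sensors and adaptors, that of Dhx58, an RNA sensor of the RIG-I family, was called lower (-0.53), and of the 6 ISG15 conjugation genes, Ube2l6 (-0.73) was called beside Isg15. None of the 7 receptor and kinase genes was called (median 0.11). Ifit3b measured -0.75 ± 0.18 (SE, limma adjusted p = 0.0577).

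On day 3 in the lymph node-labelled set Rsad2 was the only one of the 10 genes that passed, beside 0.906% of all genes called lower by limma. It measured 132, 121, 127 and 164, all below the untreated libraries, and its log2 fold change was -1.27 ± 0.22 (SE, limma adjusted p = 0.00703). Isg15 (-0.33) and Mx1 (-0.37) also had an unadjusted p under 0.05, as did 2694 of all 18215 genes, and the remaining log2 fold changes ran from -0.36 (Cmpk2) to 0.10 (Usp18). Separation without overlap was seen for Rsad2 alone, 1 of 10, beside 7.25% of all genes. Among the marker sums on day 3, the erythroid one was 2184 to 11750, that of the spleen markers 33770 to 48980, that of the pancreas genes 804 to 1097 and that of the skeletal muscle genes 206 to 245, each below all untreated libraries. Above all untreated libraries were the sums for plasmacytoid dendritic cells, 5900 to 7748, for monocytes and macrophages, 191300 to 220100, and for 5 lymph node markers, 9569 to 14010 against 6858 to 9326. Their part in the fall of Rsad2 was not tested. From day 3 to day 14 all 10 log2 fold changes were negative, with a median of -0.46, and limma called 0 of the 10 lower, beside 0.011% of all genes, where edgeR called 0 and DESeq2 1, beside 0.286%. At an unadjusted p under 0.05 there were 8 genes, and 1064 of all 18215, with Usp18 the nearest to passing (-0.64 ± 0.13, SE, limma adjusted p = 0.138).

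On day 1 in the lymph node-labelled set there were 2 libraries, and they differed widely. Ifit1 measured 944 in replicate 1 and 2262 in replicate 2, Ifit3 3590 and 6938, and Mx1 235 and 434, so that replicate 1 was below all untreated libraries and replicate 2 within their range or just above it. Replicate 1 is the library with the high pancreas sum. limma called 0 of the 10 genes, beside 0.329% of all genes called lower, and 2 had an unadjusted p under 0.05, Mx1 (-0.61) and Rsad2 (-0.67), as did 2726 of all 18215 genes. edgeR and DESeq2 called 0 as well. The median log2 fold change was -0.29. Without replicate 1, 7 of the 10 log2 fold changes turned positive, 0.26 for Ifit1 and 0.35 for Mx2 among them, and Rsad2, Mx1 and Cmpk2 stayed negative. In both libraries 5 of the marker sums lay above all untreated ones. They were those of neutrophils (27160 and 36410 on day 1), plasmacytoid dendritic cells (7547 and 7822), monocytes and macrophages (205100 and 228800), 6 T cell genes (25910 and 27230, against 22750 to 23970 untreated) and the lymph node markers (13600 and 15330). Their part in these values, and in the differences between the labels on day 1, was not tested.

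The change in the spleen-labelled set minus that in the lymph node-labelled set was tested as an interaction over 17147 genes. On day 1 it passed for 8 of the 10 genes (not Mx1 and Mx2), with values of 0.83 to 2.06, beside 0.811% of all genes. The largest was that of Rsad2, 2.06 ± 0.42 (SE, limma adjusted p = 0.0116), followed by Ifit3, 1.78 ± 0.34 (SE, limma adjusted p = 0.00701). Replicate 1 of the lymph node-labelled libraries on day 1 is the library with the high pancreas sum. The count of 8 genes rests on that replicate and replicate 2. It was 0 without replicate 1 and 10 without replicate 2, where each fit holds 1 lymph node library on day 1 that is assumed to vary like the other groups, and the calls over all genes went from 290 to 58 and 97. The count was 4 without untreated lymph node replicate 2 or 3 or untreated spleen replicate 1, and 5 without untreated spleen replicate 5 or 1-day spleen replicate 4, with 75 to 256 calls over all genes in these 5 fits. Over all fits that left out 1 library, the difference ran from 1.71 to 2.35 for Rsad2 and from 1.30 to 2.25 for Ifit3. On day 3 0 of the 10 genes passed, beside 0.525% of all genes, and 3 (Rsad2, Isg15 and Mx1) had an unadjusted p under 0.05, as did 2239 of all 17147, while edgeR called 0 and DESeq2 1, beside 1.17%.

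On day 14 the difference between the labels passed for 3 genes, Ifit3 (1.49 ± 0.30, SE, limma adjusted p = 0.0281), Rsad2 (1.86 ± 0.37, SE, limma adjusted p = 0.0281) and Isg15 (1.23 ± 0.27, SE, limma adjusted p = 0.0493), beside 0.134% of all genes. Ifit3 and Rsad2 passed in 10 of 10 alternatives and Isg15 in 3 of 10, where its limma, edgeR or DESeq2 adjusted p ran from 0.00344 to 0.0684. All 10 differences were positive and had an unadjusted p under 0.05, as did 831 of all 17147, with a median of 0.91. The count fell to 0 without any one of untreated lymph node replicates 2 and 3, 14-day lymph node replicates 1 and 2, untreated spleen replicates 1, 3 and 5, or 14-day spleen replicate 5, and to 1 without 14-day lymph node replicate 3. Over all genes the calls in those 9 fits numbered 4 to 11, against 24 with every library.

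The 10 genes varied together across libraries of a label. Under the spleen label the Pearson correlation of their log2 values over 20 libraries ran from 0.47 (Mx1 and Cmpk2) to 0.95 (Ifit1 and Ifit3), with a median of 0.84 over 45 pairs. Under the lymph node label, over 13 libraries, it ran from 0.45 (Rsad2 and Mx2) to 0.97 (Ifit1 and Ifit3), with a median of 0.82. Around the group means the medians were 0.59 and 0.78. All genes of a library share its size factor and its composition. The genes outside the 10 whose log2 values followed their mean z-score most closely were Rtp4 (0.946), Irf7 (0.921), Xaf1 (0.918), Ifit3b (0.908) and Parp9 (0.907) among 15517 genes in the spleen-labelled set. Under the lymph node label they were Ifit3b (0.980), Oasl2 (0.974), Dhx58 (0.935), Ifih1 (0.924) and Irf7 (0.916) among 15318. Around the group means, in the same order, the correlations with the mean of the 10 genes were 0.891, 0.938, 0.728, 0.743 and 0.779 in the spleen-labelled set. Those under the lymph node label were 0.958, 0.976, 0.937, 0.845 and 0.886. As Ifit3b shares 41.1% of the read-length stretches of Ifit3, its likeness to the 10 genes is uncertain.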

How the data were processed

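The authors deposited 1 table of normalised read counts, a signal on a linear scale, made per the labels and headers with STAR 2.4.0 and DESeq2 size factors on mm10 genes (56414 rows). Strand use is not given in the sources used here. Each library's values were whole multiples of 1 step (100% of values, tolerance 0.01), which returned the whole reads. Small counts were mostly even, which is what counting both mates of a pair gives. The 2 labels were scaled separately. Groups came from the sample titles. The study counts its bulk libraries as mice of 1 experiment and the labels name no animal, so p-values measure the spread between libraries of that experiment. The 56 replicate pairs held 0 identical ones. The labels do not say whether an animal gave both organs, and the tests between labels treat the libraries as different animals.

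Values were tested as log2(normalised count + 1), which understates changes of low genes, with limma 3.58.1 (R 4.3.3), an intensity trend, a mean normalised count of at least 10 and all 4 groups of a label in 1 fit. Tests were two-sided, with Benjamini-Hochberg adjustment over all genes tested and a threshold of 0.05. All 10 genes passed the filter. The 10 genes, the gene lists and the markers were chosen with earlier results of these data known. All 10 were named whatever their values. The list of interferon transcription factors is not reported here in full. Of each other list up to 3 genes with the smallest p were named, beyond them calls of a list in full where few and, for ISG15 conjugation, genes that did not pass; per label the 5 genes most correlated with the 10 were named. Alternatives covered the pseudocount, filter, scaling, library weights, replicate number, groups in the fit, each library left out, the rule of unadjusted p with 1.5-fold, and edgeR 4.0.16 and DESeq2 1.42.0 on whole reads. The limma script was tested on simulated data. Figures were drawn with matplotlib 3.10.9.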

Additional observations from a re-analysis of the deposited data

Results flagged for a closer look

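A library lay far from the others of its group, by Dixon's 95% criterion, in 5 of 60 sets of values, and chance alone gives about 1 in 20. Ifit3 measured 3873 in replicate 5 on day 14 in the spleen-labelled set, against 1823 to 2153 in the others. Rsad2 measured 92.0 in replicate 1 on day 3 in the spleen-labelled set, against 48.4 to 59.7. Ifi44 measured 216 in replicate 4 on day 3 in the spleen-labelled set against 143 to 159, 302 in replicate 1 on day 3 in the lymph node-labelled set against 205 to 216, and 122 in replicate 2 on day 14 in the lymph node-labelled set against 178 to 182.

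The change upon NAM differed between the labels, by the limma interaction, in 8 genes on day 1, beside 0.811% of all genes, and 3 on day 14, beside 0.134%. The day 1 count rests on 2 lymph node-labelled libraries, of which replicate 1 carried the high pancreas sum of 111100. With 1 library left out the counts ran from 0 to 10 on day 1 and from 0 to 4 on day 14. As log2 differences (spleen minus lymph node label), the values on day 1 were 1.54 for Ifit1, 0.86 for Ifit2, 1.78 for Ifit3, 1.45 for Isg15, 0.83 for Usp18, 2.06 for Rsad2, 1.49 for Ifi44 and 1.21 for Cmpk2. On day 14 they were 1.49 for Ifit3, 1.23 for Isg15 and 1.86 for Rsad2.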

How the results depend on the processing

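The 9 calls on day 1 in the spleen-labelled set held in number in every alternative that was run. With each library left out the count was 9 to 10, beside 2278 to 2886 of all genes called in either direction. Counts that moved by over 1.5 times elsewhere were as follows. With unadjusted p and 1.5-fold, where the number over all genes in either direction follows each count, 1 gene was called on day 14 (204) and 7 from day 1 to day 3 (332) in the spleen-labelled set, 2 on day 1 (894) and 3 from day 3 to day 14 (278) in the lymph node-labelled set, and 2 on day 3 (639) and 10 on day 14 (430) between the labels. Library weights called 5 genes (26) from day 1 to day 3 in the spleen-labelled set and 1 (1944) on day 3 between the labels. DESeq2 called 7 (36) and 1 (336), and 1 (55) from day 3 to day 14 in the lymph node-labelled set, where the 2 groups alone gave 1 (7). Without a filter 2 genes (106) were called on day 14 in the lymph node-labelled set and 4 (172) on day 1 between the labels, where edgeR called 5 (324). With each library left out, counts ran from 0 to 1 on day 1 and 1 to 4 on day 14 in the lymph node-labelled set, and between the labels from 0 to 10 on day 1, 0 to 1 on day 3 and 0 to 4 on day 14. The cause of these moves was not tested.

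Some log2 fold changes turned sign. On day 3 in the spleen-labelled set, library weights gave -0.09 for Ifit1, -0.25 for Rsad2, -0.02 for Mx2 and -0.12 for Cmpk2, and DESeq2 gave -0.02 for Cmpk2. With each library left out, Rsad2 ran from -0.06 to 0.26 and Cmpk2 from -0.09 to 0.14 on day 3, and Mx1 from -0.02 to 0.19 on day 14. In the lymph node-labelled set on day 1 the lowest values, without replicate 2, and the highest, without replicate 1, were -1.0 and 0.26 for Ifit1, -0.65 and 0.18 for Ifit2, -0.81 and 0.14 for Ifit3, -0.57 and 0.06 for Isg15, -0.49 and 0.19 for Usp18, -0.51 and 0.35 for Mx2, and -0.74 and 0.29 for Ifi44. On day 3 Mx2 was 0.02 under quantile normalisation, and with each library left out it ran from -0.06 to 0.03 and Usp18 from -0.03 to 0.20. Library weights gave Mx2 -0.01 on day 3 between the sets.

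Over all genes, settings other than leaving out a library moved the counts as follows. In the spleen-labelled set the count went from 3030 to between 1497 and 3932 on day 1, from 1013 to between 145 (the 2 groups alone) and 4722 (library weights) on day 3, from 0 to at most 204 on day 14, from 1 to at most 332 from day 1 to day 3, and from 1940 to between 943 and 2544 from day 1 to day 14. With each library left out, spleen-labelled counts ran from 159 (without day 3 replicate 3) to 2783 (without day 3 replicate 1) on day 3, 0 to 2 from day 1 to day 3 and 1214 (without day 14 replicate 1) to 1819 from day 1 to day 14. In the lymph node-labelled set it went from 221 to between 132 and 894 on day 1, from 226 to between 167 and 615 on day 3, from 144 to between 106 and 630 on day 14, and from 2 to between 1 and 278 from day 3 to day 14. Between the sets it went from 290 to between 172 and 1156 on day 1, from 126 to between 79 and 1944 on day 3, and from 24 to between 17 and 430 on day 14. With each library left out, lymph node-labelled counts ran from 66 to 125 on day 1, 84 to 302 on day 3 and 31 to 159 on day 14, the lowest each without untreated replicate 2, and from 0 to 9 from day 3 to day 14. Between the sets they ran from 58 (without lymph node day 1 replicate 1) to 413 on day 1, 33 (without lymph node untreated replicate 2) to 883 (without spleen day 3 replicate 1) on day 3 and 4 (without lymph node untreated replicate 3) to 26 on day 14.

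Same-numbered libraries did not deviate together on average. The mean r was 0.031 (range -0.496 to 0.468) in the spleen-labelled set and -0.014 (range -0.107 to 0.079) in the lymph node-labelled set. In these sets 4 of 20 and 1 of 13 libraries correlated best with their own number. A mean amid such a spread cannot exclude a pairing, and the main fit used none. With the replicate block, 4 genes (228 over all genes) were called on day 1 between the labels. Depth limits Rsad2 most, at 21 reads in its lowest library.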
